A study of Oryza sativa with 12 samples.

Results

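Outside 3 blocks of locus IDs taken as the main *indica* segments of IL22, the data held 34029 locus IDs. Of these, 22 separated the leaf RNA of IL22 from that of OLESA by at least 1.5-fold. They did so in every library, with or without salt. They were chosen by the measured values themselves. A locus ID was taken when its lowest CPM (the count scaled to a common library total) among the 6 libraries of one genotype was 1 or more and at least 1.5 times the highest CPM among the 6 libraries of the other. Locus IDs in 3 introgressed blocks (Os01g0108200 to Os01g0189100, Os01g0265800 to Os01g0542100, and Os03g0100030 to Os03g0125300) were left out. The block ends come from an earlier analysis of these same libraries, in which differentially expressed genes fell into runs of neighbouring IDs, and they are approximate. Of the 22 genotype-fixed locus IDs, 10 were higher and 12 were lower in IL22. They are 0.134% of the 16392 locus IDs outside the blocks with 1 CPM or more in every library of a genotype, and this share, like the difference between the genotypes, is a description and has no test.

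The study sequenced leaf RNA of 2 rice genotypes under 2 conditions, giving 12 libraries in 4 groups of 3 replicates, each replicate pooling leaves of 4 plants. IL22 is an introgression line bred by backcrossing the salt-tolerant *indica* line FL478 to the salt-sensitive *japonica* cultivar OLESA, followed by selfing, and OLESA is its recurrent parent (coded PL12 in the sample labels). Both genotypes were grown in hydroponic culture, and the groups were IL22 with 80 mM NaCl for 24 h (IL22 salt), IL22 without added NaCl (IL22 control), OLESA with 80 mM NaCl for 24 h (OLESA salt) and OLESA without added NaCl (OLESA control). IL22 is a single line, so what is particular to this line and what comes with its *indica* segments cannot be told apart. The donor FL478 is not among these libraries.

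Backcrossing returns most of the genome to the recurrent parent, but donor DNA next to a selected segment tends to be inherited with it, and short donor segments may remain elsewhere unnoticed. A gene whose transcript differs between a line and its recurrent parent under every condition may differ in its own sequence, in a nearby regulatory sequence, or through a factor encoded elsewhere. *Indica* and *japonica* rice also differ in which genes they carry, and reads from an allele that has diverged from the reference align less readily to it. Fragments were counted here on *japonica* gene models, so a missing gene, unaligned fragments and low expression of an *indica* allele cannot be told apart, nor can fewer cells of a type and less RNA per cell. The deposited IDs could not be paired with gene names, so each locus is given by its ID, without a role, and the leaf identity of the samples could not be checked against marker genes.

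Library totals ran from 11505396 to 23578477 counts and TMM factors from 0.845 to 1.12. IL22 control replicate 1 was the lowest or the highest of the 6 IL22 libraries at 5 of the 10 locus IDs that were higher in IL22, and its values are pointed out where they occur. Inside the blocks, 105 of 813 expressed locus IDs (12.9%) met the same rule, 38 higher and 67 lower in IL22. This share depends in part on how the blocks were drawn, from differentially expressed genes in these same libraries. Without a count in any library of the lower genotype were 3 of the 22 locus IDs outside the blocks, all 3 lower in IL22, and 30 of the 105 inside, 24 of them lower in IL22. A count of 0 in all 6 libraries allows up to 0.0317 CPM in IL22 and 0.0289 CPM in OLESA (3 counts over the 6 libraries), which covers counting error only.

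The 10 locus IDs that were higher in IL22 had margins from 1.87 to 23.5, where the margin is the lowest CPM in the higher genotype over the highest CPM in the lower genotype. In 4 of them every OLESA library was under 1 CPM. The margin was largest for Os08g0367300. Os08g0367300 had 75.5, 63.5 and 59.3 CPM in IL22 salt and 41.1, 64.4 and 58.1 CPM in IL22 control, against 1.75, 1.15 and 0.73 CPM in OLESA salt and 1.53, 0.548 and 0.721 CPM in OLESA control. Its mean was 60.3 ± 11.3 CPM in IL22 and 1.07 ± 0.487 CPM in OLESA (SD, n = 6 libraries, salt and control together), which is 56.3-fold higher in IL22. The lowest IL22 value was that of control replicate 1 and still lay far above the highest OLESA library.

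Os10g0343500 was close to absent from OLESA. Os10g0343500 had 21.4, 18.9 and 21.5 CPM in IL22 salt and 8.93, 28.3 and 31.9 CPM in IL22 control, against 0, 0.411 and 0 CPM in OLESA salt and 0.0664, 0 and 0 CPM in OLESA control. The 6 OLESA libraries held 6 counts in all, 5 of them in salt replicate 2, compared with 1995 counts in the IL22 libraries. IL22 control replicate 1 was again the lowest in IL22, and the spread within IL22, 3.57-fold between its highest and lowest library, was the widest of the 10. Os03g0409600 had 3.24, 2.91 and 3.82 CPM in IL22 salt and 4.39, 3.34 and 4.87 CPM in IL22 control, against 0, 0.164 and 0.0487 CPM in OLESA salt and 0.199, 0 and 0.0848 CPM in OLESA control. Os02g0129000 had 7.47, 6.5 and 6.0 CPM in IL22 salt and 3.09, 6.3 and 6.78 CPM in IL22 control, against 0.226, 0 and 0.243 CPM in OLESA salt and 0.199, 0 and 0.0848 CPM in OLESA control. In both locus IDs 2 of the OLESA libraries had no count, and no library of either genotype came near the other genotype.

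Os04g0330900 was even across the IL22 libraries, with a 1.44-fold range. Os04g0330900 had 16.4, 18.1 and 23.5 CPM in IL22 salt and 17.6, 17.2 and 19 CPM in IL22 control, against 0.508, 0.904 and 0.876 CPM in OLESA salt and 0.464, 2.81 and 0.594 CPM in OLESA control. OLESA control replicate 2 stood above the other 5 OLESA libraries and alone set the margin of 5.82. Os09g0251500 had 2.77, 2.71 and 2.17 CPM in IL22 salt and 3.24, 2.88 and 4.01 CPM in IL22 control, against 0.847, 0.822 and 0.828 CPM in OLESA salt and 0.464, 0.548 and 0.551 CPM in OLESA control. For Os09g0251500 all IL22 salt libraries were below all IL22 control libraries, whereas all OLESA salt libraries were above all OLESA control libraries. Os07g0212400 had 4.49, 4.26 and 3.56 CPM in IL22 salt and 3.69, 7.31 and 4.93 CPM in IL22 control, against 0.96, 0 and 0.292 CPM in OLESA salt and 1.59, 0.617 and 0.636 CPM in OLESA control. One OLESA salt library of Os07g0212400 had no count while OLESA control replicate 1 reached 1.59 CPM.

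The remaining 3 locus IDs higher in IL22 were also measured in every OLESA library and lay nearest to the limit of the rule. Os03g0132900 ranged over 48.3 to 89.3 CPM in the 6 IL22 libraries and 17.3 to 23.9 CPM in the 6 OLESA libraries, and Os07g0539900 over 45.6 to 78.6 CPM in the 6 IL22 libraries and 12.1 to 23.7 CPM in the 6 OLESA libraries. The highest IL22 value of each was that of control replicate 1. Os03g0559900 had 9.77, 8.32 and 11.1 CPM in IL22 salt and 8.19, 3.65 and 4.62 CPM in IL22 control, against 0.904, 0.74 and 1.17 CPM in OLESA salt and 1.06, 1.92 and 1.95 CPM in OLESA control. Its IL22 salt values were all above the IL22 control values, with control replicate 1 close to the lowest of them. The margin was 1.87 for Os03g0559900, 1.92 for Os07g0539900 and 2.02 for Os03g0132900. On the other side of the limit, Os09g0538000 reached 1.48, Os11g0308600 1.39 and Os08g0395500 1.38.

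**Figure D1:**
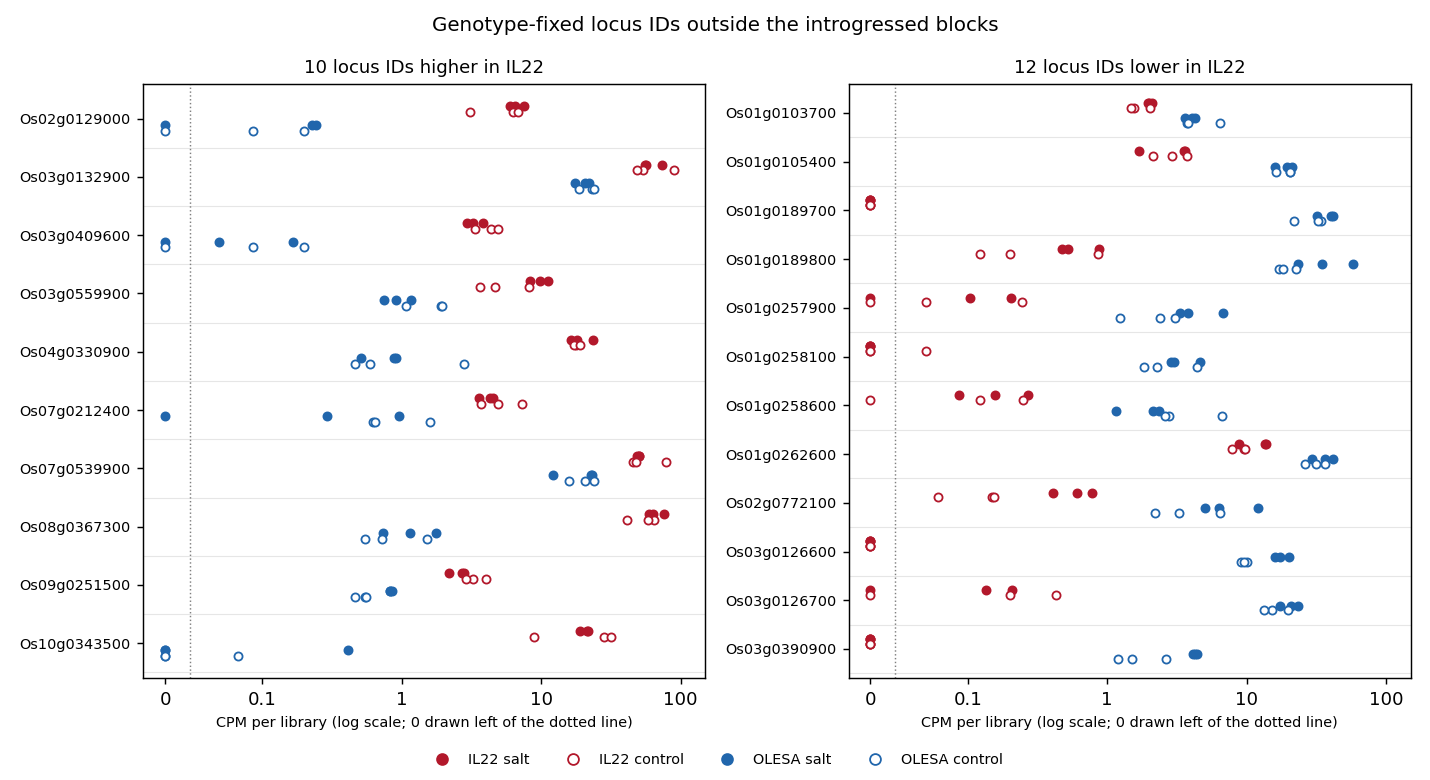
CPM of the 22 genotype-fixed locus IDs in each of the 12 libraries on a log axis, with 1 point per library, IL22 in red above OLESA in blue, salt filled and control open, and libraries without a count left of the dotted line. In each row the red and blue points do not overlap, as the rule requires, and Os01g0189700, Os03g0126600 and Os03g0390900 had no count in any IL22 library.

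The 12 locus IDs that were lower in IL22 had margins from 1.73 upwards, with a median of 12.3, compared with 4.19 for the 10 higher ones. In 9 of the 12 every IL22 library was under 1 CPM. Os01g0189700, Os03g0126600 and Os03g0390900 had no count in any IL22 library. Os01g0189700 had 0, 0 and 0 CPM in IL22 salt and 0, 0 and 0 CPM in IL22 control, against 32.1, 41.5 and 40.4 CPM in OLESA salt and 34.4, 32.5 and 22 CPM in OLESA control. With 3 counts over the 6 IL22 libraries as the floor, this is at least 1066-fold lower in IL22 than the 33.8 ± 7.02 CPM (SD, n = 6) of OLESA. The OLESA libraries held 3414 counts of this locus ID.

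Os03g0126600 was 0 in the 6 IL22 libraries and 16.1, 20.1 and 17.4 CPM in OLESA salt and 10.1, 9.18 and 9.59 CPM in OLESA control, at least 433-fold lower in IL22. Its OLESA salt libraries were all above its OLESA control libraries. Os03g0390900 was 0 in the 6 IL22 libraries and 4.12, 4.28 and 4.38 CPM in OLESA salt and 2.65, 1.51 and 1.19 CPM in OLESA control, at least 95.2-fold lower. Here too no OLESA salt library was as low as an OLESA control library. Os01g0258100 had 1 count in the 6 IL22 libraries (0.0499 CPM in control replicate 1) and 311 counts in OLESA. Os03g0126700 had 0.209, 0.135 and 0 CPM in IL22 salt and 0.20, 0 and 0.432 CPM in IL22 control, against 17.3, 20.7 and 23.2 CPM in OLESA salt and 19.8, 15.3 and 13.4 CPM in OLESA control. That is 0.163 ± 0.161 CPM in IL22 and 18.3 ± 3.63 CPM in OLESA (SD, n = 6), 112-fold lower in IL22.

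Os01g0189800 was measured at low level in all 6 IL22 libraries. Os01g0189800 had 0.522, 0.474 and 0.869 CPM in IL22 salt and 0.20, 0.855 and 0.123 CPM in IL22 control, against 23.2, 35 and 57.8 CPM in OLESA salt and 17.1, 22.5 and 18.4 CPM in OLESA control. OLESA salt replicate 3 was the highest of all, and OLESA salt lay above OLESA control throughout. Os01g0257900 had 0.104, 0.203 and 0 CPM in IL22 salt and 0.0499, 0 and 0.247 CPM in IL22 control, against 3.33, 3.78 and 6.82 CPM in OLESA salt and 3.05, 2.4 and 1.23 CPM in OLESA control. Os01g0258600 had 0.157, 0.271 and 0.0869 CPM in IL22 salt and 0.25, 0 and 0.123 CPM in IL22 control, against 2.15, 1.15 and 2.34 CPM in OLESA salt and 2.79, 6.65 and 2.59 CPM in OLESA control. Both were at 10 to 15 counts over all IL22 libraries, so their levels there rest on few fragments. OLESA control replicate 2 was the highest library for Os01g0258600 by a wide distance.

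Os01g0105400 and Os01g0262600 were lower in IL22 but present in all libraries. Os01g0105400 had 3.6, 1.69 and 3.56 CPM in IL22 salt and 2.15, 3.73 and 2.9 CPM in IL22 control, against 15.9, 19.4 and 21.2 CPM in OLESA salt and 20.6, 20.3 and 16.2 CPM in OLESA control. This is 2.94 ± 0.854 CPM in IL22 and 18.9 ± 2.31 CPM in OLESA (SD, n = 6), 6.45-fold lower in IL22, and salt and control libraries were intermixed in both genotypes. Os01g0262600 ranged over 7.89 to 13.7 CPM in the 6 IL22 libraries and 26.3 to 42 CPM in the 6 OLESA libraries. Os02g0772100 had 0.784, 0.406 and 0.608 CPM in IL22 salt and 0.15, 0.156 and 0.0616 CPM in IL22 control, against 12, 5.02 and 6.33 CPM in OLESA salt and 6.44, 3.29 and 2.21 CPM in OLESA control. Every IL22 salt library of Os02g0772100 was above every IL22 control library, at 6 to 15 counts per salt library and 1 to 3 per control library. Os01g0103700 ranged over 1.48 to 2.09 CPM in the 6 IL22 libraries and 3.6 to 6.44 CPM in the 6 OLESA libraries and had the smallest margin, 1.73, followed by 1.92 for Os01g0262600 and 2.81 for Os02g0772100. Nearest below the limit in this direction were Os10g0419400 with 1.32, Os01g0106400 with 1.26 and Os01g0261500 with 1.22.

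The locus ID gives the chromosome and, by its number, the order along it, which the rule used only to leave out the blocks. By this order the 2 directions were placed differently. All 10 locus IDs higher in IL22 lay more than 50 locus IDs away from a block end, whereas 10 of the 12 lower ones lay within 50. Among the 149 expressed locus IDs within 50 of a block end, 6.71% were genotype-fixed, compared with 0.0739% of the 16243 farther away. The block ends were drawn from differentially expressed genes in these same libraries. Position relative to them is therefore not independent of the values that the rule used, and these shares are a description. Chromosomes 1 and 3 held 14 of the 22, and the other chromosomes held 8, of which 7 were higher in IL22. No genotype-fixed locus ID was on Chromosome 5, 6, 11 or 12.

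Os01g0189700 and Os01g0189800 were the first and second locus IDs after the end of the first block, next to Os01g0189100, the last ID of the block, which was itself lower in IL22 (log2 ratio of mean CPM -6.76, with 0.1 CPM added to each mean). Before the start of that block, Os01g0105400 was 18 and Os01g0103700 was 30 locus IDs away. Os01g0257900, Os01g0258100 and Os01g0258600 lay 43, 41 and 40 locus IDs before the second block and made up 3 of 4 consecutive locus IDs, the longest run outside the blocks, and Os01g0262600 lay 19 before it. Os03g0126600 and Os03g0126700 were 11 and 12 locus IDs past the block at the start of Chromosome 3. The block ends are approximate, and whether these 10 locus IDs lie on *indica* or *japonica* DNA was not tested here. The paper did assign genes to *indica* or *japonica*, from the number of transcript variants per gene. It reported that the resulting regions essentially matched its DNA genotyping of IL22 by sequencing and by allele-specific PCR, which was not used here. It also placed some *indica* genes on other chromosomes. Its gene list was not compared with the genotype-fixed locus IDs.

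The stretches between them and the block ends were not fixed throughout. Of the 24 expressed locus IDs between Os01g0257900 and the second block, 6 did not overlap between the genotypes, 3 of which were genotype-fixed. Of the 8 between Os03g0126600 and the block end, 1 did not overlap. Over all expressed locus IDs outside the blocks, 122 of 16392 (0.744%) did not overlap. Among the 149 expressed locus IDs within 50 of a block end, 7 further ones did not overlap between the genotypes without meeting the rule. Of these, Os01g0104400, Os01g0259200, Os01g0264700, Os03g0125800 and Os03g0126800 were higher in IL22, so the single direction of the 10 genotype-fixed ones does not hold for all IDs around the blocks. Os03g0126800, next to Os03g0126700, had 209.7 ± 23.3 CPM in IL22 and 122 ± 38.9 CPM in OLESA (SD, n = 6).

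**Figure D2:**
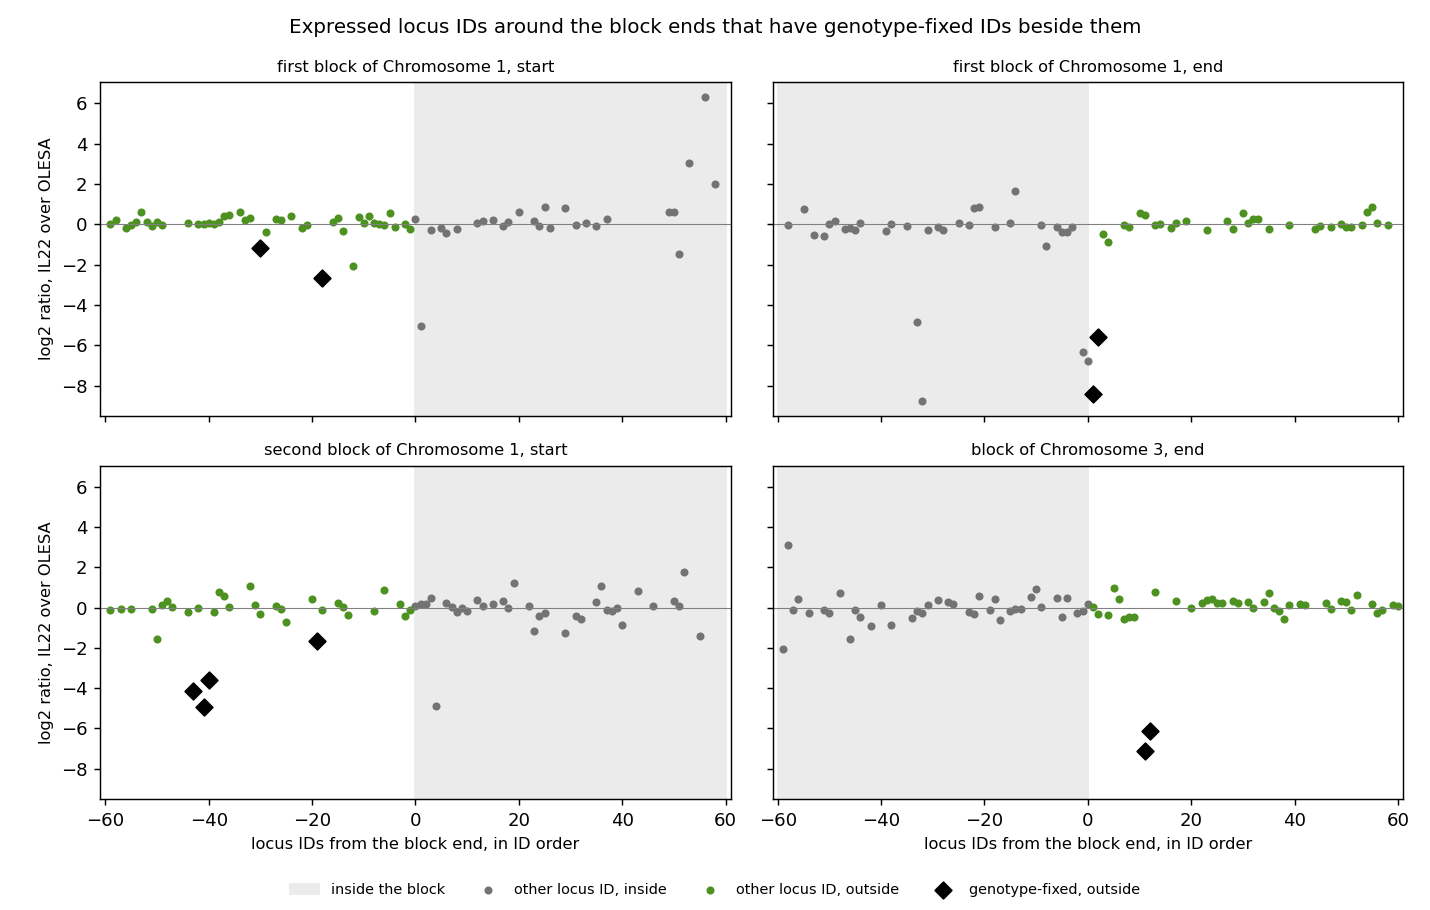
Log2 ratio of mean CPM (IL22 over OLESA, 0.1 CPM added to each mean) of the expressed locus IDs up to 60 IDs on either side of 4 block ends, in ID order, with the block shaded and genotype-fixed locus IDs outside the blocks as diamonds. The 10 diamonds within 50 IDs of an end lie below 0, among green points that mostly lie near 0.

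The surroundings of the 12 locus IDs away from the blocks were read next. The 5 nearest expressed locus IDs on each side were read for each, which gave 120 neighbours, and the genotypes overlapped in all 120. Since 0.744% of all expressed locus IDs outside the blocks did not overlap, a count of 0 in 120 is near that background. The log2 ratios of these neighbours ran from -0.70 to 1.12 with a median of 0.04, compared with -4.96 and -3.70 for Os03g0390900 and Os02g0772100 and 1.44 to 6.93 for the 10 higher ones. Around the 10 locus IDs near the block ends, 6 of 52 neighbours did not overlap. Os03g0132900 lay 71 locus IDs past the Chromosome 3 block and was thus the closest to a block of the 12. The others on Chromosome 3, Os03g0390900, Os03g0409600 and Os03g0559900, were 1875, 1967 and 2148 locus IDs from it. The treatment of fragments with more than 1 matching gene is not stated in the sources, so a locus ID with a near-identical copy elsewhere is uncertain.

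**Figure D3:**
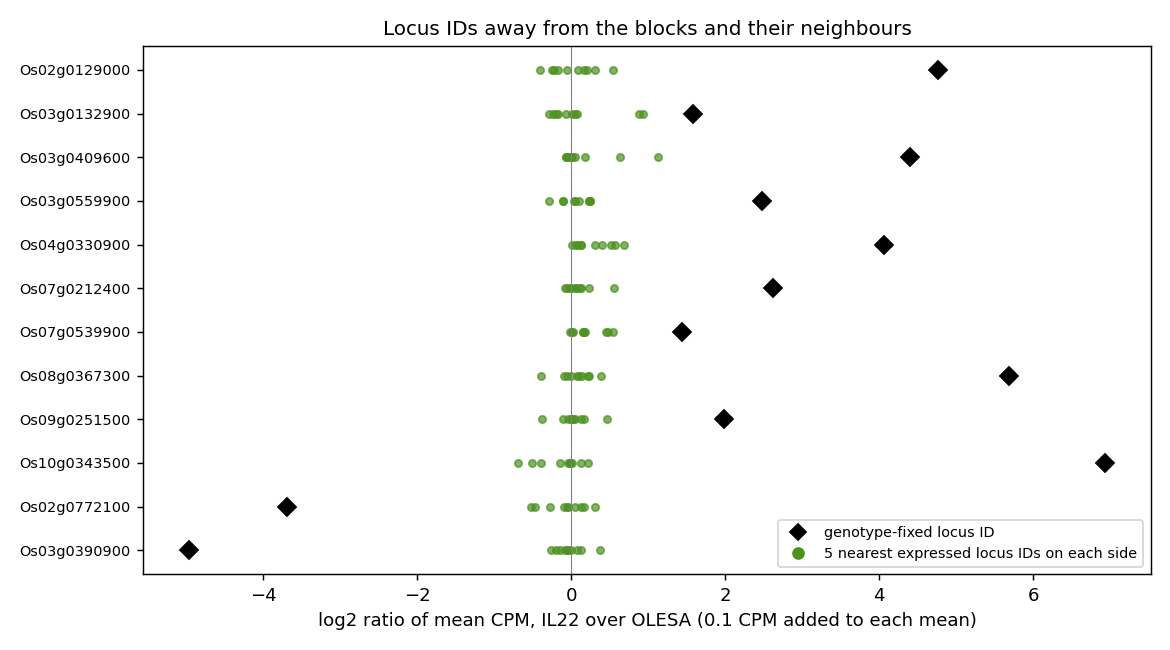
Log2 ratio of mean CPM (IL22 over OLESA) of the 12 genotype-fixed locus IDs away from the blocks, as diamonds, and of the 5 nearest expressed locus IDs on each side of each, as circles. The circles run from -0.70 to 1.12, and each diamond lies beyond all circles of its own row.

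Since the rule used all 12 libraries, the genotype difference was also read with the choice and the test in different libraries. In the 6 salt libraries alone, the rule chose 585 locus IDs outside the blocks, 325 higher and 260 lower in IL22, and 563 of them could be tested in a separate fit of the control libraries. There 22 (3.91%) were called in the same direction by edgeR's quasi-likelihood test with Benjamini-Hochberg adjustment, 9 higher and 13 lower, and 3 in the opposite direction, with limits of 0.05 on the adjusted p and 0.5 on the size of the log2 FC. Of all locus IDs outside the blocks tested in that fit, 0.215% were called in either direction. However, 19 of the 22 calls were genotype-fixed locus IDs, for which the rule had used the control libraries too, so these calls are no independent test. Among the other 541 chosen, 3 (0.555%) were called in the same direction and 3 in the opposite one. Of all locus IDs outside the blocks other than the genotype-fixed ones, 0.113% were called in either direction. Only 149 of the 541 had the same sign in control as in salt, so most had the opposite sign. The 22 became 11 without OLESA control replicate 3, 36 without IL22 control replicate 1, 12 when IL22 control replicate 2 was left out and 14 for each of the other 3 control libraries.

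In the reverse order, the 6 control libraries alone chose 201 locus IDs, 159 higher and 42 lower in IL22, and 190 could be tested in the 6 salt libraries. In salt 29 of them (15.3%) were called in the same direction, 15 higher and 14 lower. Of all locus IDs outside the blocks tested there, 6.55% were called in either direction. Again 21 of the 29 were genotype-fixed locus IDs, and their calls rest on values that the rule had used, so they are no independent test. Among the other 168, 8 (4.76%) were called in the same direction and 8 in the opposite one, and 84 had the same sign in both conditions. Of all locus IDs outside the blocks other than the genotype-fixed ones, 6.44% were called in either direction. Without IL22 salt replicates 1, 2 and 3 the 29 became 19, 19 and 18. Apart from the genotype-fixed ones, Os02g0765900 and Os01g0631200 were called in both orders and Os01g0106400 in control alone. Called in salt alone were Os01g0259200, Os03g0133800, Os09g0538000, Os11g0308600, Os01g0908200 and Os03g0760500.

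The rule was also applied with 1 library left out at a time. The other 11 libraries chose 22 to 30 locus IDs outside the blocks, which include the 22 by construction. Summed over the 12 cases, 26 locus IDs were gained, and at 18 of these the left-out library fell on the side of its own genotype, past every library of the other one, but not by the rule's fold or level. Most gains came without OLESA control replicate 3 (8 gained, 5 on its own side) and without IL22 control replicate 1 (5 gained, 4 on its own side). Without OLESA control replicate 3, 17 locus IDs were higher and 13 lower in IL22, and the 7 gained in the higher direction include Os02g0765900 and Os09g0538000. OLESA control replicate 3 had the deepest library and the lowest TMM factor of the 12, and their part in this was not tested.

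One of the genotype-fixed locus IDs was called for a response to salt in OLESA, and none in IL22. All 22 passed the filter on low counts, and salt was tested against control within each genotype in a fit of all 12 libraries. In IL22 none of the 22 was called by edgeR's quasi-likelihood test with Benjamini-Hochberg adjustment (background 5.17% of 20760 features), 1 passed at an unadjusted p of 0.05 (background 18%), and DESeq2 called 0. Without IL22 control replicate 1, Os03g0559900 alone was called there (log2 FC 1.05). In OLESA 1 of the 22 was called (background 21.6%), and 5 passed at the unadjusted p, 3 higher and 2 lower in salt (background 32.9%). With 1 library left out, other locus IDs passed in OLESA. These were Os03g0559900 (log2 FC -0.96 without IL22 control replicate 1 and -1.22 without OLESA control replicate 1), Os01g0189800 (0.84 without IL22 control replicate 2), Os02g0772100 (1.35 without OLESA control replicate 1) and Os07g0212400 (-2.55 without OLESA salt replicate 1). The 3 locus IDs without counts in IL22 cannot show a response there, so 19 carry the test in IL22. The median log2 FC was -0.04 over these 19 in IL22 and 0.19 over the 22 in OLESA, compared with -0.03 and 0.01 over all features tested. Regardless of direction, the median log2 FC in size was 0.32 for the 19 in IL22 and 0.70 for the 22 in OLESA, compared with 0.31 and 0.46 over all features tested. Some of the 22 had few counts in OLESA, such as Os10g0343500 with 6 (SE 1.87) and Os03g0409600 with 8 (SE 0.97). The part of low counts in the larger size in OLESA was not tested. The SE ran from 0.19 to 1.44 (median 0.45) in IL22 and from 0.18 to 1.87 (median 0.39) in OLESA. The rule also limits how far a locus ID can move within a genotype before the genotypes overlap.

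The locus ID called in OLESA was Os03g0126600, one of those without a count in IL22. Its level was 17.9 ± 2.02 CPM in OLESA salt and 9.62 ± 0.453 CPM in OLESA control (SD, n = 3 each), a log2 FC of 0.75 (SE 0.23; adjusted p = 0.0435 in edgeR's quasi-likelihood test), and all 3 salt libraries were above all 3 control libraries. The call was lost in 11 of 17 alternative settings, and over all 17 the log2 FC ran from 0.62 to 0.81 and the adjusted p from 0.0117 to 0.148. It was lost without each of the 3 OLESA control, the 3 OLESA salt and the 3 IL22 salt libraries. Os03g0390900 had 4.26 ± 0.13 CPM in OLESA salt and 1.78 ± 0.771 CPM in OLESA control (SD, n = 3 each; log2 FC 1.14, SE 0.41; adjusted p = 0.0759 in edgeR's quasi-likelihood test), and DESeq2 called it with an adjusted p of 0.0422.

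In IL22, Os02g0772100 came nearest, with 0.599 ± 0.189 CPM in IL22 salt and 0.122 ± 0.0526 CPM in IL22 control (SD, n = 3 each). Its log2 FC was 2.11 (SE 0.67, adjusted p = 0.0915 in edgeR's quasi-likelihood test), with an adjusted p from 0.0431 to 0.286 over 16 alternatives. In OLESA it had 7.79 ± 3.73 CPM in salt and 3.98 ± 2.2 CPM in control (SD, n = 3 each), a log2 FC of 0.87 (SE 0.41; adjusted p = 0.141 in edgeR's quasi-likelihood test). The mean CPM was thus higher in salt than in control in both genotypes without passing the adjusted p in the fit of all 12 libraries. In OLESA the salt and control libraries overlapped. The response passed in OLESA without OLESA control replicate 1 (adjusted p = 0.0474 in edgeR's quasi-likelihood test). Its CPM in each IL22 salt library was below that in each OLESA library, as the rule requires.

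Whether salt acted differently in IL22 than in OLESA was tested as an interaction. It was called for none of the 22 (background 4.99%) by edgeR's quasi-likelihood test with Benjamini-Hochberg adjustment. At an unadjusted p of 0.05, 2 passed (background 24.3%), and DESeq2 called 1. The 3 locus IDs without a count in IL22 cannot show an interaction, so 19 carry this test. Os03g0559900, the one called by DESeq2, had 9.74 ± 1.4 CPM in IL22 salt and 5.49 ± 2.39 CPM in IL22 control, and 0.937 ± 0.216 CPM in OLESA salt and 1.64 ± 0.504 CPM in OLESA control (SD, n = 3 each). The interaction was 1.65 on the log2 scale (SE 0.49, adjusted p = 0.0692 in edgeR's quasi-likelihood test). The adjusted p was 0.0237 with DESeq2, and over 16 alternatives it ran from 0.00892 to 0.159. It passed without IL22 control replicate 1, whose 8.19 CPM was the highest of its group, with a log2 interaction of 2.02, and without OLESA control replicate 1, with 1.90.

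Os09g0251500 was the other locus ID past the unadjusted p, with opposite directions in the 2 genotypes. It had 2.55 ± 0.328 CPM in IL22 salt and 3.38 ± 0.577 CPM in IL22 control, and 0.832 ± 0.0131 CPM in OLESA salt and 0.521 ± 0.0493 CPM in OLESA control (SD, n = 3 each). The interaction was -1.06 on the log2 scale (SE 0.47, adjusted p = 0.186 in edgeR's quasi-likelihood test), so the difference was not past the threshold over all genes, although the salt and control libraries did not overlap in either genotype. It rests on 7 to 17 counts per OLESA library.

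**Figure D4:**
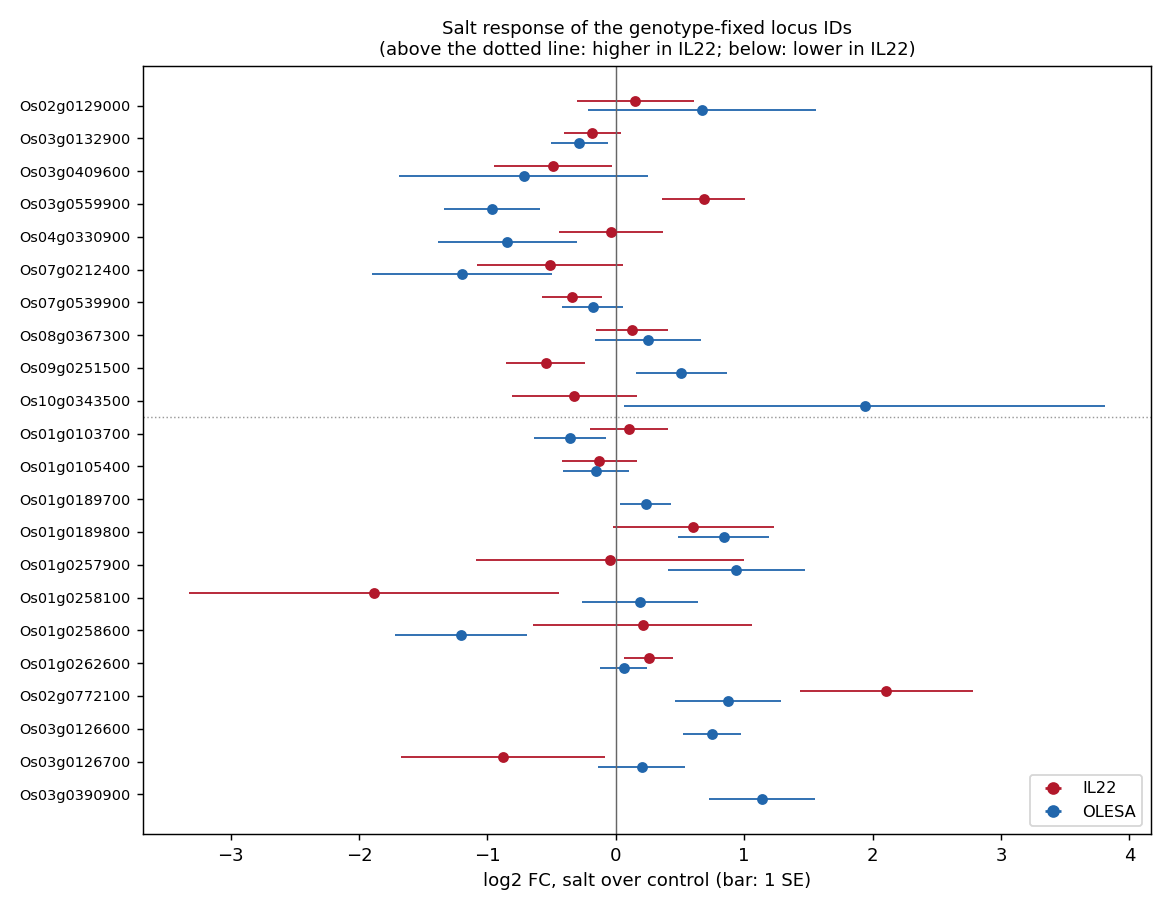
Log2 FC of salt over control for the 22 genotype-fixed locus IDs in IL22 (red) and OLESA (blue), with bars of 1 SE, from the fit of all 12 libraries, and no IL22 point for the 3 locus IDs without a count in IL22. The points run from -1.88 to 2.11 in IL22 and from -1.21 to 1.94 in OLESA, and the one called after adjustment is Os03g0126600 in OLESA. The lowest IL22 point is Os01g0258100, with 1 count over the IL22 libraries (SE 1.44). The highest OLESA point is Os10g0343500, with 6 counts over the OLESA libraries (SE 1.87).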

How the data were processed

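The libraries are those of leaves of IL22 and OLESA in salt and control. Each replicate is its own set of 4 plants, so the p-values rest on the spread between sets. The deposited values are raw fragment counts per feature, which the authors made from stranded libraries by demultiplexing with bcl2fastq (version 2.20), masking adapters with cutadapt (version 1.11), trimming with BBDuk, aligning with STAR (version 2.5.2b) and counting with featureCounts (version 1.5.1). The IDs are those of the *japonica* reference IRGSP-1.0.

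CPM was computed from the total of each of the 12 columns, and no per-sample column was left unused. The file holds 36844 features, of which 1177 have no locus ID (none met the rule) and 6937 have no count. Counts were tested in R 4.3.3 with edgeR 4.0.16 (TMM, filterByExpr with a minimum count of 10 and a minimum total of 15, quasi-likelihood fit with 1 mean per group, Benjamini-Hochberg adjustment over all features), and calls needed an adjusted p up to 0.05 with a log2 FC beyond 0.5 in size. The SE was the log2 FC over the root of its F value. The steps were tested on simulated data. DESeq2 1.42.0 was an alternative. Other alternatives were RLE factors, no filter, a replicate block, each genotype alone, other limits of the rule, blocks extended by 50 locus IDs, and leaving out each library.

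The locus IDs and the lists were chosen with earlier results of these data known. The rule for naming took the 8 with the largest margin in each direction, the 3 nearest the limit on either side of it, those called, and the longest run. The other genotype-fixed IDs, the calls gained in held-out or left-out libraries, the neighbours and the locus IDs beside the blocks were added after the values were seen. Gene lists by function, leaf markers, the FPKM criterion of the study and sequences were not used, because 1 of 36844 IDs, and none of the 22, matched the gene reference at hand (ASM3414082v1).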

Additional observations from a re-analysis of the deposited data

How the results depend on the processing

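The locus IDs higher and lower in IL22 numbered 10 and 12 with TMM-scaled CPM, 8 and 10 with a fold of 2, 18 and 14 with a fold limit midway between 1 and 1.5, and 5 and 6 with a lowest CPM of 5. Extending each block by 50 locus IDs left 10 and 2. Leaving out 1 library gave 10 to 17 higher and 12 to 14 lower. The number called for salt in OLESA was 2 with DESeq2 and 0 without a filter, and 0 to 2 with 1 library left out, reaching 2 without IL22 control replicate 1 or 2 or OLESA control replicate 1. In IL22 it was 0 to 1 (Os03g0559900, without IL22 control replicate 1). The interaction was called for 1 with DESeq2 and for 0 to 1 with 1 library left out. With 1 library left out, the locus IDs chosen in salt and called in control numbered 11 to 36. Those chosen in control and called in salt then numbered 18 to 36. With DESeq2 these numbers were 30 and 39. Of 704 genotype log2 FC recomputed under 16 settings, 27 moved by more than the SD between replicates and none changed sign. Settings with an arm of 2 libraries share the spread of the other groups.

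The replicate numbers were also used as a block. Samples of the same number did not deviate together (r from -0.33 to 0.20 over 18 pairs of libraries, across genes, 4 of them over 0.1), so they share a number only. With the replicate block, 1 locus ID was called for salt in IL22 (Os02g0772100, adjusted p = 0.0431 in edgeR's quasi-likelihood test), 0 for salt in OLESA and 0 for the interaction, and 10 were chosen in salt and called in control and 24 the reverse. Depth limits the locus IDs with few counts in the lower genotype most, and 9 of the 12 lower in IL22 were under 1 CPM in every IL22 library.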
